A study of Neurospora crassa with 34 samples.

Results

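The genes described here are the 42 genes of the filamentous fungus Neurospora crassa, of 9730 genes counted, that the deposited list of H3K27me2/3 changes gave as gained in the translocation strain UK2-32. H3K27me2/3 is di- and trimethylation of lysine 27 on histone H3. The list sets each strain against wild type by ChIP-seq and does not rest on mRNA levels. Of the 42, 15 were also listed as having lost the mark in the translocation strain OY337, and none was on the list of any of the other 5 strains. All 42 lay on the right part of linkage group (LG) IV, from NCU07009 to NCU08824, within a stretch of 63 genes in which 21 genes were not listed. They formed 5 runs of adjacent genes: NCU07009, NCU07022 and NCU08824 each stood alone, 12 genes ran from NCU07027 to NCU07038, and 27 ran from NCU07042 to NCU08827. The 15 genes shared with OY337 were all in this last run.

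H3K27 methylation is laid down by Polycomb repressive complex 2, whose catalytic subunit in N. crassa is the product of set-7. In this fungus the mark covers silent genes and is concentrated near chromosome ends, and the fungus can live without it. In a chromosome translocation a segment is moved to another place, so that genes far from an end can come to lie next to one.

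Poly-A+ mRNA had been sequenced from 7 translocation strains and from OY329 with a deletion of set-7, with 2 libraries for each of these 8 groups. UK2-32 (mat A) carried T(IVR->VL)UK2-32, a segment of LG IVR that holds nit-3 and the markers beyond it and that had been moved to LG VL at or near the nucleolus organizer. OY337 (mat A, al-2) carried T(II->IV)OY337, a segment of LG IIR moved to the tip of LG IVR. The other translocation strains were ALS159 (mat A, T(IV->VI)ALS159), AR16 (mat a, In(IL->IR)AR16), OY329 (mat A, T(VI->III)OY329), OY350 (mat A, T(VIL->IR)OY350) and UK3-41 (mat A, inl, T(VR->VIL)UK3-41). The libraries labelled with the deletion came from isolates N6086 and N6087. All cultures were germinated conidia, the asexual spores, grown with shaking for 16 h at 32 °C in Vogel's minimal medium with 1.5% sucrose. Wild-type mRNA was not analysed here, so UK2-32 was set against the other strains, each of which has a rearrangement of its own. The study describes its mRNA sequencing as biological duplicates, but N6086 and N6087 are not in its list of strains.

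Between 6435058 and 27994440 reads fell on genes in a library, 7793060 and 7321698 of them in the UK2-32 libraries. The libraries of OY329 differed most from each other, and OY329 replicate 1 was the deepest. The index sequences in the library names had 8 bases for OY329 replicate 1, N6086 and N6087. For OY329 replicate 3 and all other libraries they had 6. The bearing of this on the comparison of the set-7 deletion with OY329 was not tested. The set-7 mRNA was at 3.46 and 2.00 CPM (reads on a gene after scaling for the depth of its library) in the libraries labelled with its deletion, against 9.72 and 9.52 CPM in OY329. It was thus lower but not absent (log2 fold change -1.79, SE 0.26; edgeR quasi-likelihood test, adjusted p = 0.0036). In UK2-32 set-7 had 14.6 and 15.3 CPM, within the range of the other translocation strains. matA-1, a gene of the mat A idiomorph, had no read in either UK2-32 library although the strain is described as mat A, and none in the libraries labelled with the deletion. It had no read in AR16, which is mat a, and from 1 to 294 reads in each library of the remaining strains. The bearing of this on the identity of the UK2-32 culture was not tested. Conidial genes were expressed but unevenly: eas, which encodes the hydrophobin of the conidial surface, had 22.5 and 42.1 CPM in UK2-32, against 51.9 to 15572 CPM in the other 6 strains, while con-8 had 1187 and 1316 CPM in UK2-32, against 1.81 to 1813 CPM. In bulk RNA, fewer expressing cells and less RNA per cell cannot be told apart.

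The 42 genes spanned the whole range from silent to strongly transcribed. Of the 42, 29 passed the filter on low counts and were tested. The 13 others had between 0 and 64 reads over all 14 libraries of the translocation strains and did not exceed 1.67 CPM in any of them. Of the 15 genes shared with OY337, 7 were tested, and of the other 27, 22. Of the 29, 6 passed the filter only through their reads in UK3-41, having at most 4 reads in any library outside that strain and none in UK2-32: NCU07043 and the 5 shared genes NCU07047, NCU08838, NCU08835, NCU08834 and NCU08832. A difference of these 6 from UK3-41 was thus fixed by the filter, and no call could be made for them between strains without such reads.

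**Figure D1:**
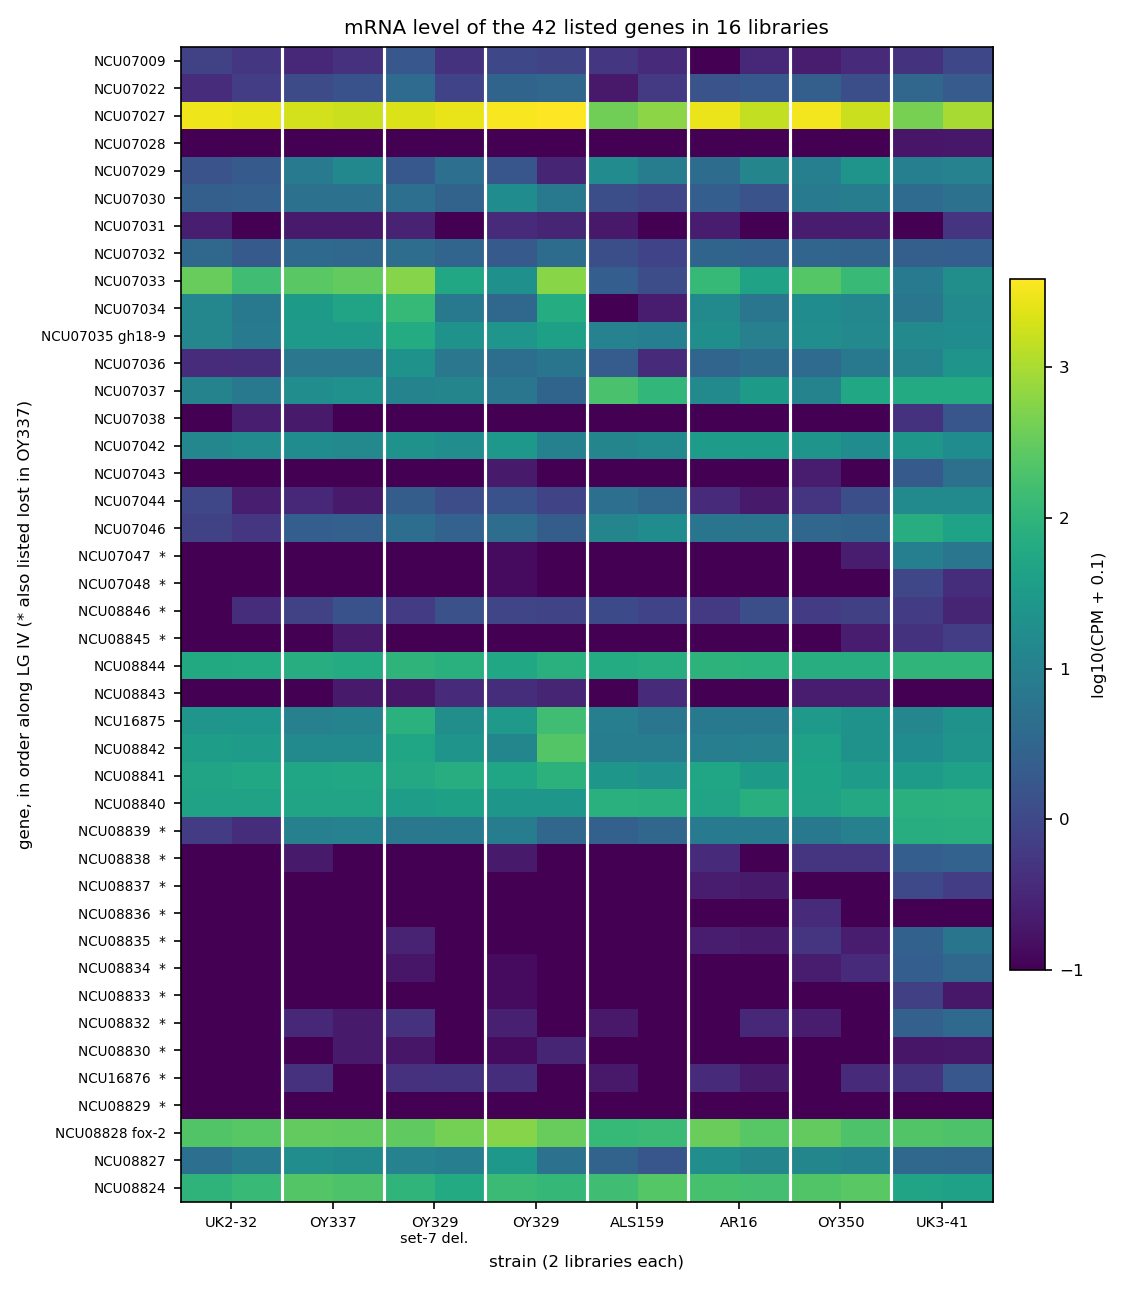
Level of each of the 42 listed genes (rows, in order along LG IV) in each of the 16 libraries (columns, 2 per strain), as log10 of CPM plus 0.1. The genes marked with an asterisk, also listed as lost in OY337, are dark in nearly every column other than the UK3-41 pair, whereas NCU07027 and fox-2 are bright throughout.

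The 5 genes with the highest mean CPM were NCU07027, fox-2 (NCU08828), NCU07033, NCU08824 and NCU08844. Of the 5, only NCU07033 passed the threshold in UK2-32 against the other 6 strains, being called higher there as described below. Per kilobase of annotated length their mean levels over the 14 libraries were 628, 77.0, 125, 89.4 and 18.5 CPM. NCU07027 had 2962 and 2612 CPM in UK2-32, against a lowest of 400.4, a median of 1648 and a highest of 3878 CPM in the 12 libraries of the other strains. The UK2-32 values lay in the upper part of that range, and the difference just missed the threshold (log2 fold change 0.88, SE 0.30, edgeR adjusted p = 0.0503). fox-2 encodes the multifunctional enzyme of peroxisomal fatty acid beta-oxidation. It had 221 and 252 CPM in UK2-32, against 120 to 571 CPM with a median of 268 CPM in the other 12 libraries. Its levels overlapped fully (log2 fold change -0.11, SE 0.21, edgeR adjusted p = 0.72). NCU08824, the last gene of the list, had 97.4 and 125 CPM in UK2-32, against 42.2 to 254 CPM with a median of 174 CPM. It was called lower with UK3-41 out of the reference (log2 fold change -0.74, edgeR adjusted p = 0.022, against -0.40). NCU08844, which sits among the shared genes without being one of them, had 61.8 and 63.3 CPM in UK2-32, against 55.4 to 101 CPM and a median of 73.1 CPM, and was called lower without both OY329 libraries (log2 fold change -0.35, edgeR adjusted p = 0.0098).

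UK2-32 was first compared with the mean of the other 6 strains. Of the 29 tested genes, 6 were lower in UK2-32 and 1 was higher at an adjusted p under 0.05. Over all 8170 genes tested, 12.6% were lower and 17.5% were higher in the same comparison. The median log2 fold change of the 29 genes was -0.75, beside 0.01 over all genes, and 22 of the 29 were below 0, beside 49.3% of all genes. The 6 genes tested only through UK3-41 are among the 22. The 7 genes that fail the filter without the UK3-41 libraries are these 6 and NCU08846, and over the remaining 22 the median was -0.42, with the same 6 lower and 1 higher. By p-values without adjustment, again read at 0.05, 10 of the 29 were lower and 2 were higher, beside 19.0% and 23.5% of all genes.

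NCU08839 and NCU07046 showed the clearest separation, being the 2 tested genes for which both UK2-32 libraries lay below all 12 others (5.64% of all genes tested did so). NCU08839 had 0.56 and 0.29 CPM in UK2-32, against a lowest of 2.45, a median of 7.98 and a highest of 78.4 CPM in the other 12 libraries. Those UK2-32 levels rest on 6 reads in all (log2 fold change -4.47, SE 0.48, edgeR adjusted p = 0.00028). NCU07046 had 0.69 and 0.44 CPM in UK2-32, against 2.14 to 71.5 CPM with a median of 4.98 CPM (log2 fold change -3.60, SE 0.41, edgeR adjusted p = 0.00039). Both calls held under each of the 26 alternatives that were run for them.

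NCU07036 was at 0.28 and 0.29 CPM in UK2-32, from 4 reads in all, against 0.25 to 23.9 CPM with a median of 5.26 CPM. One ALS159 library was as low as UK2-32 and the other 11 libraries were all higher (log2 fold change -4.03, SE 0.76, edgeR adjusted p = 0.0040). NCU07037, which overlaps NCU07036, had 11.2 and 7.07 CPM in UK2-32, against 2.91 to 190 CPM with a median of 26.5 CPM. Both OY329 libraries were lower than both of UK2-32, and the 190 CPM came from ALS159 (log2 fold change -1.71, SE 0.56, edgeR adjusted p = 0.040). Whether the counting used strand is not given in the sources used here, so reads of the overlap could belong to either gene.

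NCU07029 had 1.39 and 1.91 CPM in UK2-32, against 0.19 to 23.2 CPM with a median of 9.45 CPM. The UK2-32 pair was below the libraries of 5 strains, and OY329 was as low, with 1.56 and 0.19 CPM (log2 fold change -2.22, SE 0.65, edgeR adjusted p = 0.028). NCU07022 had 0.28 and 0.59 CPM in UK2-32, against 0.11 to 3.17 CPM with a median of 1.57 CPM. ALS159 was again as low (log2 fold change -1.67, SE 0.55, edgeR adjusted p = 0.043). The gene called higher was NCU07033, with 328 and 152 CPM in UK2-32, against 1.11 to 592 CPM with a median of 79.6 CPM. The groups overlapped, since OY337 and OY350 were at similar levels while ALS159 had 2.24 and 1.11 CPM (log2 fold change 2.13, SE 0.70, edgeR adjusted p = 0.043). con-8 was low in ALS159 too, with 1.81 and 3.95 CPM, and its part in the difference at NCU07033 was not tested.

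**Figure D2:**
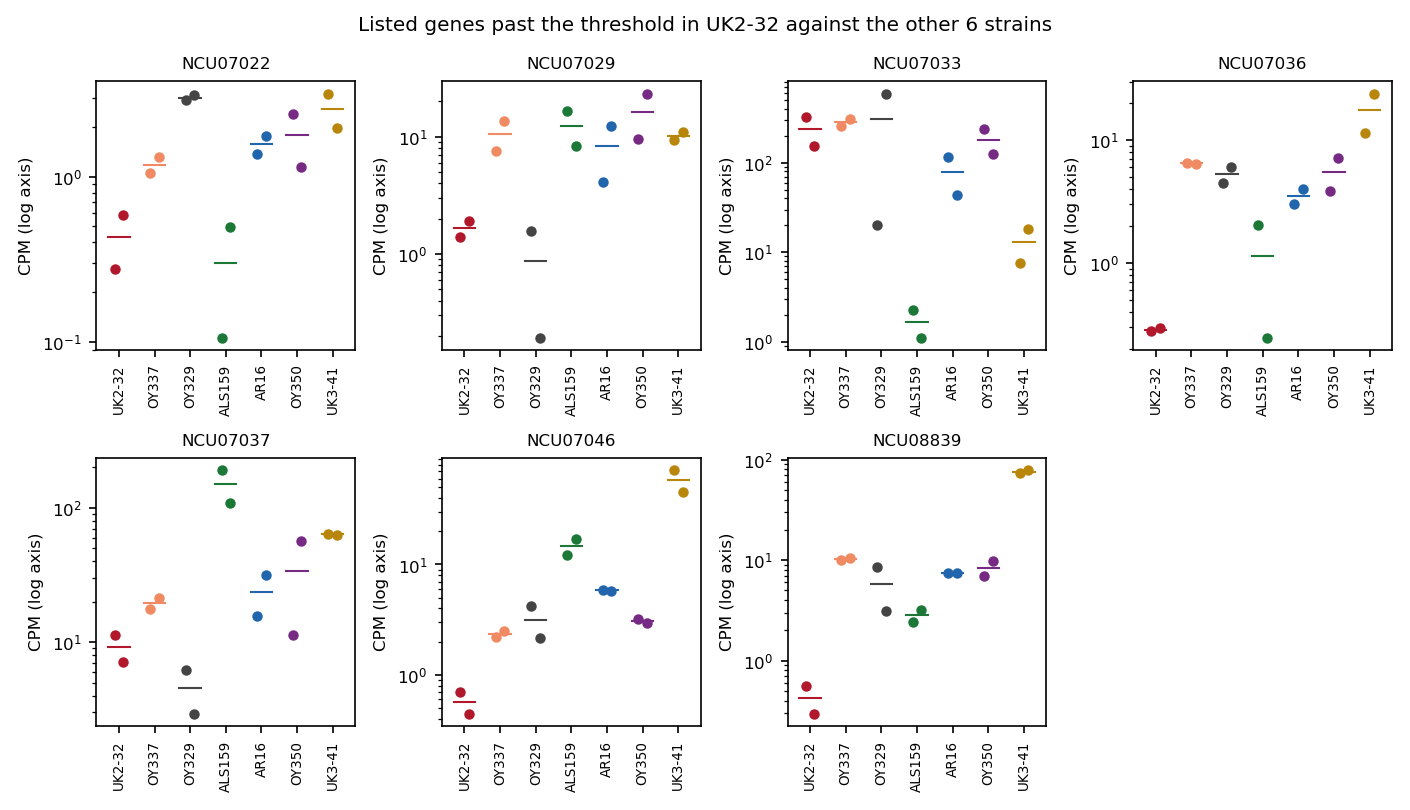
CPM (log axis) in each library of the 7 translocation strains for the 7 listed genes past the threshold in UK2-32 against the other 6 strains; points are libraries and bars are strain means. NCU08839 and NCU07046 are lowest in both UK2-32 libraries and highest in UK3-41, and NCU07033 is the gene called higher.

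NCU07022, NCU07033 and NCU07037 were called by a small margin. DESeq2 did not call NCU07022 (adjusted p = 0.052) or NCU07033 (adjusted p = 0.058). With a replicate block in edgeR the adjusted p was 0.059 for NCU07022, 0.060 for NCU07033 and 0.054 for NCU07037. With all 16 libraries in the edgeR fit it was 0.12 for NCU07022 and 0.067 for NCU07033. With ALS159 left out of the reference, NCU07033 was at an adjusted p of 0.29 and NCU07037 at 0.12 (edgeR), and with UK3-41 left out NCU07022 was at 0.085, NCU07033 at 0.12 and NCU07037 at 0.079. Leaving out OY329 replicate 1 put NCU07029 at 0.18. Without one of the UK2-32 libraries, which leaves a single one assumed to vary like the other strains, only NCU07046 and NCU08839 of the 6 lower genes stayed past the threshold.

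Along LG IV the called genes were not a continuous block. NCU07036 and NCU07037 are adjacent, and the other lower genes, NCU07022, NCU07029, NCU07046 and NCU08839, were separated from them and from each other by listed genes that did not pass the test, among them NCU07042 (13.0 and 16.0 CPM in UK2-32, against 10.5 to 32.9 CPM) and NCU08840 (44.1 and 43.3 CPM, against 26.4 to 83.6 CPM). Of the 21 genes inside the stretch that were not listed, 20 were tested, with 5 lower, 3 higher and a median log2 fold change of -0.30. Of the 20 genes before the first listed gene, all 20 were tested, with 4 lower, 1 higher and a median of -0.09. Of the 20 genes after the last one, 15 were tested, with 5 lower, 2 higher and a median of -0.28. Some of these 20 were listed as losses. NCU08818, NCU08816, NCU08814, NCU08813 and NCU08812 were listed as lost in OY337, and NCU08802, NCU08801 and NCU08800 in both OY337 and UK2-32. NCU08816 is among the lower genes and NCU08802 among the higher ones. The quartiles of the 22 tested listed genes without a listing in OY337 ran from -1.54 to 0.27 around a median of -0.42, while those of the unlisted genes between them ran from -0.44 to 0.28 and those of all genes from -0.36 to 0.40. No test set the listed genes against their neighbours.

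**Figure D3:**
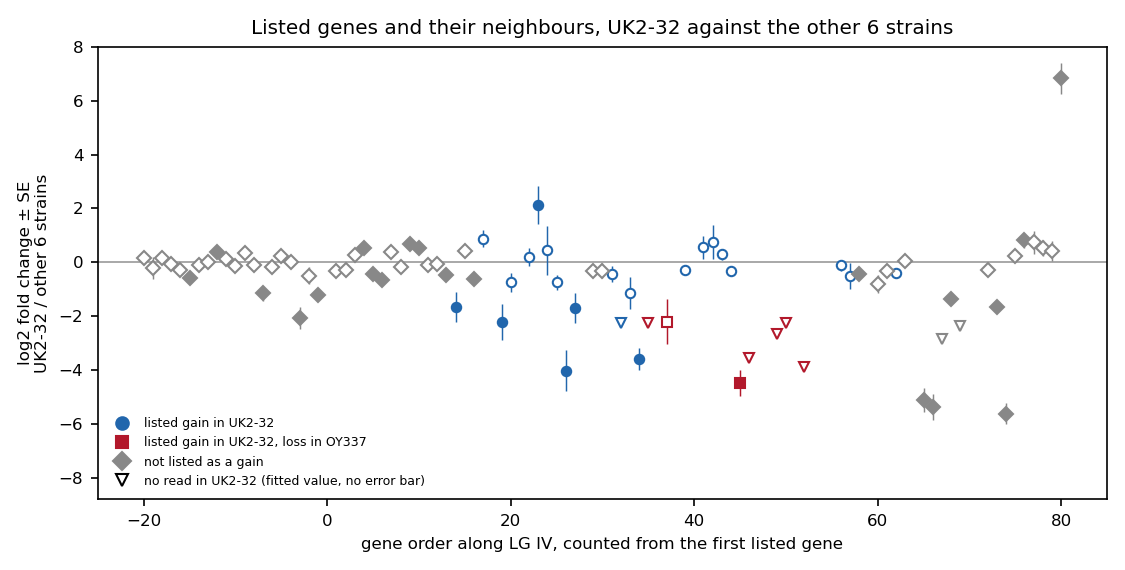
Log2 fold change with its SE, UK2-32 against the other 6 strains, for the tested genes in their order along LG IV, counted from the first listed gene. Filled symbols passed the threshold, and triangles are genes with no read in UK2-32. Circles and squares are genes listed as gained in UK2-32, and diamonds are genes not listed as gained there. Some diamonds beyond the last listed gene are listed as lost, NCU08816 in OY337 and NCU08802 in OY337 and UK2-32. Listed genes from the middle of the stretch onwards reach -4.47, unlisted genes before them mostly stay near 0, and 3 unlisted genes beyond the list lie below -5.

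The 15 genes also listed as lost in OY337 were nearly silent in UK2-32. They are NCU07047, NCU07048, NCU08846, NCU08845, NCU08839, NCU08838, NCU08837, NCU08836, NCU08835, NCU08834, NCU08833, NCU08832, NCU08830, NCU16876 and NCU08829. Over the 15 genes the UK2-32 libraries held 4 and 4 reads, of which NCU08839 had 4 and 2. In OY337 they held 98 and 103 reads, in UK3-41 1033 and 1053, and in the libraries of the other 4 strains 21 to 263. Scaled to depth, the summed level was 0.56 and 0.59 CPM in UK2-32, against 11.5 and 12.2 CPM in OY337, 96.4 and 103.6 CPM in UK3-41 and 3.62 to 11.8 CPM in the remaining 4 strains. NCU08839 gave 2 of the 4 reads in UK2-32 replicate 2 and most of the reads in every other library. Without NCU08839 the sums were 0 and 0.29 CPM in UK2-32, 1.40 and 1.66 CPM in OY337, 22.9 and 25.2 CPM in UK3-41 and 0.74 to 1.92 CPM elsewhere.

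**Figure D4:**
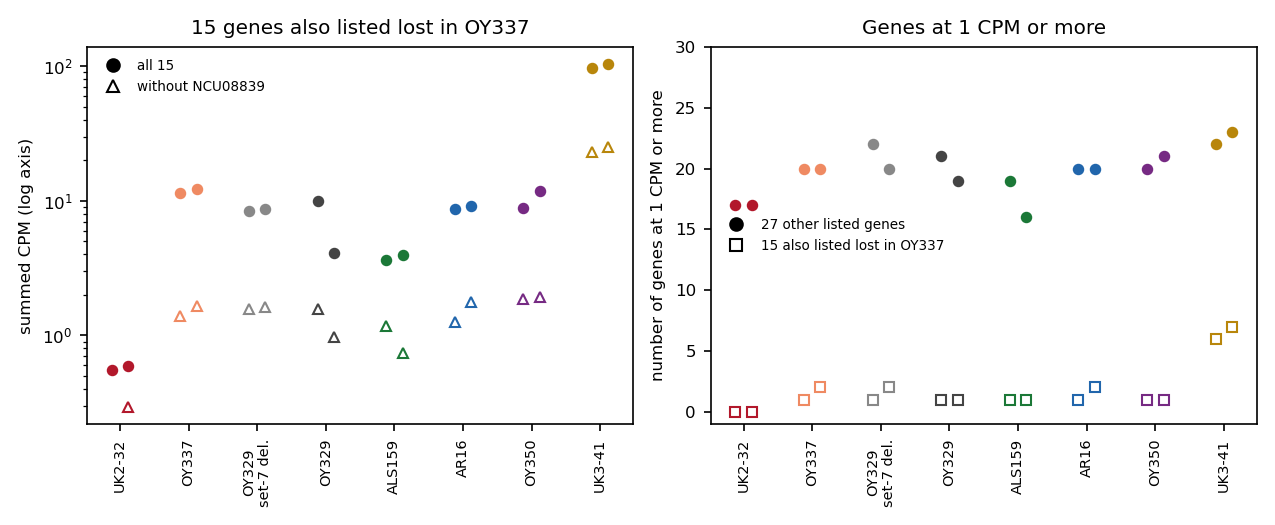
Left, summed CPM (log axis) of the 15 genes also listed as lost in OY337, per library, with all 15 (circles) and without NCU08839 (triangles; 1 UK2-32 library at 0 is not drawn). Right, number of genes at 1 CPM or more per library, for the other 27 listed genes (circles) and for these 15 (squares). UK2-32 is lowest and UK3-41 highest on the left, and UK3-41 has 6 and 7 of the 15 genes at 1 CPM or more.

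No gene of the 15 reached 1 CPM in UK2-32, against 1 or 2 in each library of OY337 and 6 and 7 in UK3-41. In UK2-32 13 of the 15 had no read in either library, against 8 in OY337, 11 in ALS159, 8 in AR16, 5 in OY329, 5 in OY350 and 2 in UK3-41. These counts follow depth as well as level, and the library of OY329 with 27994440 reads is one of those behind the count of 5. A count of 0 over both UK2-32 libraries allows up to 3 reads, or 0.21 CPM, counting error alone being covered.

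NCU07047 was the one listed gene with no read in UK2-32 and a mean of at least 1 CPM over the other 12 libraries. It had 9.61 and 6.10 CPM in UK3-41, 0.04 CPM in OY329 replicate 1, 0.13 CPM in OY350 replicate 2 and no read in the other libraries. Almost all of its 167 reads were thus from UK3-41, and its level in UK2-32 was at least 36.9-fold lower than in that strain. The gene passed the filter only through UK3-41, so this difference was fixed and is not particular to UK2-32. Of the 15 shared genes, 11 had their highest strain mean in UK3-41. NCU08846, whose highest mean was in OY337, had 0 and 0.29 CPM in UK2-32, against 0.20 to 1.31 CPM with a median of 0.72 CPM in the other 12 libraries. Its difference did not pass the threshold (log2 fold change -2.21, SE 0.83, edgeR adjusted p = 0.066).

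NCU08838, NCU08835, NCU08834 and NCU08832 had no read in UK2-32 and 2.24 and 2.66, 2.52 and 5.90, 2.24 and 3.35, and 2.43 and 3.64 CPM in the 2 UK3-41 libraries. In the 10 libraries of the remaining strains these 4 genes did not exceed 0.40 CPM. In UK2-32 they were at least 11.4-fold, 19.4-fold, 13.0-fold and 14.1-fold lower than in UK3-41. These genes passed the filter only through UK3-41, so a difference from that strain was fixed and is not particular to UK2-32. NCU16876 had 0.37 and 1.67 CPM in UK3-41, NCU08837 had 0.93 and 0.59, NCU07048 had 0.84 and 0.30, NCU08845 had 0.37 and 0.59, and NCU08833 had 0.65 and 0.10 CPM. None of these 5 genes had a read in UK2-32, nor more than 0.37 CPM in any library of the other groups. NCU08836 had 2 reads in all, both from OY350 replicate 1, NCU08830 had 5 reads over the 14 libraries, and NCU08829 had no read in any of the 16 libraries.

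OY337 was compared with the 5 strains that list neither a gain nor a loss at these genes, to see whether genes listed as having lost the mark differed there. Only NCU08839 and NCU08846 of the 7 shared genes tested could be judged there, since the 5 others had 0 to 3 reads in OY337 and were tested through UK3-41. Neither was called, at an unadjusted p under 0.05 as well, and DESeq2 called none of the 7. Over all genes 5.84% were lower and 11.6% were higher in OY337. NCU08846 had 0.70 and 1.31 CPM in OY337 (log2 fold change 0.59, SE 0.50, edgeR adjusted p = 0.44). The shared gene with the most reads, NCU08839, had 10.1 and 10.6 CPM in OY337, against 2.45 to 78.4 CPM in the 5 strains (log2 fold change 0.09, SE 0.26, edgeR adjusted p = 0.84). Among the 22 tested genes without a listing in OY337, 4 were higher there and 2 were lower. The higher ones were NCU07033, NCU07034, gh18-9 (NCU07035), which encodes a chitinase of glycoside hydrolase family 18, and NCU08824. NCU07034 had 31.9 and 47.8 CPM in OY337, against 0 to 69.9 CPM in the 5 strains, with ALS159 at 0 and 0.12 CPM (log2 fold change 2.90, SE 0.78, edgeR adjusted p = 0.029). gh18-9 had 30.9 and 29.5 CPM in OY337, against 9.39 to 39.6 CPM in the 5 strains (log2 fold change 0.89, SE 0.24, edgeR adjusted p = 0.029). The lower ones were NCU07044 with 0.23 and 0.12 CPM in OY337, against 0.12 to 15.7 CPM, and NCU07046 with 2.22 and 2.50 CPM, against 2.14 to 71.5 CPM. These 6 calls came from genes outside the list of OY337. Each was lost when an OY337 library was left out (edgeR adjusted p of 0.12 to 0.25 for the 4 higher genes, 0.10 and 0.13 for NCU07044, and 0.058 for NCU07046 without replicate 1), and NCU07034 and gh18-9 also with all 16 libraries in the fit (0.063 and 0.099). eas, at 7474 and 1784 CPM in OY337, was far above its level in UK2-32, and its part in these differences was not tested.

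UK2-32 set directly against OY337 gave 4 lower genes of 29 and none higher, beside 2.28% lower and 2.15% higher over all genes. No tested gene was higher at an unadjusted p under 0.05 either, and DESeq2 called none higher. The 4 were NCU08839 (log2 fold change -4.55, SE 0.53, edgeR adjusted p = 0.00075), NCU07036, gh18-9 and NCU08824. NCU07036 had 6.55 and 6.42 CPM in OY337, so the 0.28 and 0.29 CPM of UK2-32 were well apart from it (log2 fold change -4.44, SE 0.83, edgeR adjusted p = 0.014). gh18-9 had 13.3 and 8.10 CPM in UK2-32, against 30.9 and 29.5 CPM in OY337 (log2 fold change -1.49, SE 0.34, edgeR adjusted p = 0.035). NCU08824 had 97.4 and 125 CPM in UK2-32, against 227 and 200 CPM in OY337 (log2 fold change -0.94, SE 0.23, edgeR adjusted p = 0.042). NCU08839 was the one call that held without any single library. NCU07036 had an adjusted p of 0.051 to 0.14, gh18-9 of 0.082 to 0.24 and NCU08824 of 0.11 to 0.31 when a library of either strain was left out.

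Leaving OY337 out of the reference, UK2-32 had 7 lower and 2 higher genes of 29, against 15.1% and 19.4% of all genes. The 2 genes that came in were NCU07044, lower, and NCU07027, higher (edgeR adjusted p of 0.044 and 0.041). NCU07044 had 0.83 and 0.15 CPM in UK2-32, and its highest levels were 15.7 and 14.9 CPM in UK3-41. The median of the 29 genes was -0.67, and that of all genes 0.01.

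The strains differed from one another at most of the genes, whichever strain was high or low. Of the 29 tested genes, 26 differed among the 7 strains, against 78.5% of all genes, the 6 tested through UK3-41 being bound to do so. UK2-32 had the lowest strain mean at 6 of the 29 (13.8% of all genes), namely NCU07036, NCU07046, NCU08846, NCU08844, NCU08839 and NCU08832. NCU08832 was tested only through UK3-41. It had no read in UK2-32, and means of only 0.05 to 0.18 CPM in the strains other than UK3-41. None of the 29 had both UK2-32 libraries above all 12 others.

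UK3-41 was set against the other 6 strains after its values at the listed genes had been seen. It had the highest strain mean at 12 of the 29 tested genes (25.6% of all genes), but 6 of these 12 are the genes that were tested only through UK3-41. Of the 29, 14 were higher and 4 were lower in UK3-41, against 29.8% and 26.5% of all genes. Without the 7 genes that fail the filter when UK3-41 is left out, 8 of 22 were higher and 4 were lower, against 27.9% and 27.2% of the 7936 genes that pass it. The 14 were the 6 shared genes NCU07047, NCU08839, NCU08838, NCU08835, NCU08834 and NCU08832 together with NCU07022, NCU07036, NCU07037, NCU07043, NCU07044, NCU07046, NCU08840 and NCU08844. NCU07046 had 71.5 and 45.7 CPM in UK3-41, against 0.44 to 17.2 CPM in the other 6 strains (log2 fold change 4.16, SE 0.19, edgeR adjusted p = 1.2e-07). NCU07043, a neighbour of the shared genes, had 1.87 and 4.82 CPM in UK3-41 and at most 0.13 CPM in any library of the other strains. The comparison was chosen for this pattern, and UK3-41 differed from the others at 4598 of the 8170 genes, beside 2465 for UK2-32.

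The deletion of set-7 was available in OY329 alone, a strain for which the list gives no change at these genes. The libraries labelled with the deletion had no matA-1 read, against 38 and 18 reads in OY329. The groups thus differed at matA-1 as well as at set-7, and the comparison cannot tell these apart. Of the 29 genes, 1 was lower and none was higher in the libraries labelled with the deletion than in OY329, beside 2.7% lower and 4.84% higher over all genes. At an unadjusted p under 0.05, 2 were lower and 2 were higher, beside 10.7% and 14.8% of all genes, and DESeq2 called none higher. The lower gene was NCU07030, with 4.68 and 2.74 CPM in the libraries labelled with the deletion, against 17.2 and 6.99 CPM in OY329. The pairs did not overlap (log2 fold change -1.73, SE 0.36, edgeR adjusted p = 0.027), yet without OY329 replicate 1 the adjusted p was 0.22. Of the shared genes NCU08839 and NCU08846 were not called, the other 5 tested had at most 4 reads in any of these libraries and could not be, and the summed level of the 15 was 8.40 and 8.73 CPM with the deletion, against 10.0 and 4.08 CPM in OY329. Both values with the deletion lay between the OY329 libraries. The median over the 29 genes was 0.06, and over all genes 0.02. NCU07033 showed how far single libraries of one group could lie apart, with 562 and 57.5 CPM in the libraries labelled with the deletion and 20.0 and 592 CPM in OY329.

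Beside set-7, the list of genes tied to H3K27 methylation held NCU05300, NCU05460, NCU06679 and NCU07505. In UK2-32 against the other 6 strains 3 of the 5 genes were lower, beside 12.6% of all genes: NCU05300 (log2 fold change -1.14, SE 0.34, edgeR adjusted p = 0.028), NCU06679 (log2 fold change -0.40, SE 0.13, edgeR adjusted p = 0.040) and NCU07505 (log2 fold change -0.48, SE 0.15, edgeR adjusted p = 0.038). set-7 and NCU05460 did not pass the test. NCU05300 had 7 and 14 reads in UK2-32 (0.97 and 2.06 CPM), which overlapped OY329 (2.10 and 1.75 CPM). NCU06679 had 70.8 and 68.8 CPM in UK2-32, above OY329 with 51.7 and 51.1 CPM. NCU07505 had 21.9 and 21.6 CPM in UK2-32, above OY329 with 18.0 and 19.0 CPM. Each of these 3 genes was highest in UK3-41, which is part of the reference. nit-3, the nitrate reductase gene on the moved segment, had 69.4 and 76.3 CPM in UK2-32, against 25.3 to 462 CPM in the other 12 libraries (log2 fold change -0.51, SE 0.54, edgeR adjusted p = 0.50). By gene order nit-3 lay 59 genes beyond NCU08824, on the side away from NCU07009.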

How the data were processed

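Counts of poly-A+ mRNA were analysed for 16 libraries in 8 groups. The counts deposited by the authors are numbers of reads per gene. The 5 extra summary rows in each file hold reads not assigned to a gene (5.605% to 26.963% of a library), and were left out. The submitters' processing notes name TopHat, SAMtools, HTSeq, DESeq, Bowtie2 and BWA, without versions or roles. Annotation release and strandedness are not given in the sources used here. The deposited list marks each pair of strain and gene as a gain or a loss of H3K27me2/3. Its fold changes and p-values against wild type, and 1 further column of values per sample, were not used. The members and gene lists were chosen with earlier results of these data known.

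Counts were filtered by filterByExpr, normalized by TMM and fitted with the quasi-likelihood model of edgeR 4.0.16 (limma 3.58.1, R 4.3.3), with strain as the factor. In 14 libraries 8170 genes were tested, and in 16 libraries 8223. P-values were adjusted over all genes tested (Benjamini-Hochberg) and read at 0.05. The SE is the size of a log2 fold change divided by the square root of F. With 2 libraries per group no exact test was run for single genes. Counts were also simulated for UK2-32 against the other 6 strains (8007 genes). Of the 85 tested genes changed 2-fold, 69.4% were recovered, and of the 87 changed 4-fold, 97.7%. Recovery at the levels of the listed genes, and at their spread between strains and libraries, was not tested. Values per library are given for genes past the threshold in UK2-32 or with the set-7 deletion, genes shared with OY337, genes silent in UK2-32 but at 1 CPM or more on average elsewhere, and the 5 highest. Other genes were named after their values were seen. Symbols, linkage groups and gene order came from the RefSeq table of assembly NC12, which 9729 of the 9730 genes matched. The study used a corrected NC12, so no coordinates were taken from that table. Structural variant calls for genomic DNA, deposited by the authors with supporting reads and a score, were read as given. Alternatives were DESeq2 1.42.0, RLE scaling, other filters, a replicate block, all 16 libraries in the fit, other references and leaving out each library.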

Additional observations from a re-analysis of the deposited data

How the results depend on the processing

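Counts of called genes, out of 29 tested, were small and moved with the settings. In UK2-32 against the other 6 strains (6 lower, 1 higher, median -0.75), requiring at least 10 counts in every library left 12 genes, with 1 lower, 0 higher and a median log2 fold change of -0.31, and dropping the filter gave 2 higher and a median of -1.11. The numbers of higher genes were 0 with a replicate block, with all 16 libraries in the fit and with ALS159 or UK3-41 out of the reference, and 2 with OY337, AR16, OY329 or OY350 out of it. The medians were -0.67, -0.92, -0.97 and -0.59 without OY337, ALS159, AR16 and OY329 in the reference. Without both OY329 libraries, an alternative chosen after seeing the data, 4 were higher, the median was -0.60 and fox-2 had a log2 fold change of 0.038; with OY329 out of the reference alone fox-2 had 0.054 (-0.11 otherwise). With members lacking reads set to the bound of 3 counts the median was -0.75. Leaving out each library gave 2 to 7 lower, 0 to 4 higher and medians of -1.16 to -0.67.

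Without OY337 in the reference, the strict filter gave 1 lower and 1 higher, the block 1 higher, and the fit without both OY329 libraries 6 higher. Leaving out each library gave 3 to 10 lower and 0 to 5 higher. In UK2-32 against OY337, 2 were lower under the strict filter and with 16 libraries in the fit; without each library 1 to 9 were lower and 0 to 2 higher, the 9 without either OY329 library. In UK3-41 against the other 6, the strict filter gave 3 higher and a median of -0.11, and leaving out each library 1 to 4 lower, the 1 without UK3-41 replicate 1. In the set-7 comparison the strict filter gave 0 lower and a median of -0.23; without each library 0 to 2 were lower and 0 to 2 higher, and the median ran between -0.39 without N6086 and 0.38 without N6087. Among the 7 strains the strict filter gave 11 called. The causes were not tested, except that the strict filter tests 12 of the genes.

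Over all genes, DESeq2 called 617 genes in UK2-32 against OY337, where edgeR called 362, and 1023 in the set-7 comparison, where edgeR called 620. Without both OY329 libraries 3744 genes were called in UK2-32 against the other 6, where 2465 were called, and 3093 in OY337 against the 5 strains, where 1427 were called. With UK3-41 out of the reference 1599 were called in UK2-32. Without a UK2-32 library 641 to 646 were called in UK2-32 against the other 6, and without an OY337 library 218 and 290 in OY337 against the 5 strains. Without OY329 replicate 1, 367 were called in the set-7 comparison, and without UK3-41 replicate 1, 2951 in UK3-41, where 4598 were called. The strict filter left 239 called in UK2-32 against OY337.

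Libraries were taken in order within each strain, as replicates 1 and 3 for OY329 and 1 and 2 otherwise. They deviated together in 4 of 21 pairs of strains (correlation above 0.1, median -0.02, highest 0.39). The numbers thus showed no general pairing of the libraries, but pairing in some strains was not excluded. With the replicate block 4 genes were lower and 0 higher in UK2-32 against the other 6. Depth limits the silent genes: 6 reads or fewer stand behind the UK2-32 levels of NCU07022, NCU07036 and NCU08839.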

Other observations

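Beyond the last listed gene, 3 genes that the list does not give as gained were lower in UK2-32 by more than any listed gene with reads in that strain; they were chosen after their values were seen. NCU08821, the third gene after NCU08824, had 4.44 and 1.47 CPM in UK2-32, against 55.2 to 164 CPM with a median of 108.5 CPM in the other 12 libraries (log2 fold change -5.12, SE 0.45, edgeR adjusted p = 0.00012). NCU08820, next to it, had 10.7 and 3.24 CPM in UK2-32, against 182 to 478 CPM with a median of 279 CPM (log2 fold change -5.38, SE 0.48, edgeR adjusted p = 0.00012). bdp-1, 12 genes beyond NCU08824, had 1.80 and 1.32 CPM in UK2-32, against 31.5 to 232 CPM with a median of 74.7 CPM (log2 fold change -5.62, SE 0.40, edgeR adjusted p = 4.0e-05). For each of the 3 genes both UK2-32 libraries lay far below every other library. NCU08802, 18 genes beyond NCU08824 and listed as lost in UK2-32 and in OY337, went the other way, with 17 and 23 reads in UK2-32 and 3 reads in all over the other 12 libraries.

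Structural variant calls from the genomic DNA of UK2-32 (isolate N5859) held 56 interchromosomal calls with an end on LG IV. Of these, 32 had no call of the other 8 isolates within 1000 bp at both ends, and 6 of the 32, at 3 junctions, were given by both read pairs and split reads. On the corrected NC12 build that the study used, 2 of these junctions joined LG I at 4733001 and 4732994 to LG IV at 4484179 and 4481611, with 14 and 13 read pairs. The other joined LG IV at 5165109 to contig 8 at 96895, with 8 read pairs. Each of the 9 isolates had a read-pair call joining the left end of LG V to contig 8, with 31 to 168 pairs. Where these positions lie relative to the listed genes was not determined, because no annotation of that build was used here. The study itself reported no breakpoint detected by sequencing for UK2-32 and relied on genetic mapping for this strain. Whether any of these junctions is the translocation breakpoint was not tested.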
